A study of Mus musculus with 6 samples.

Results

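The immediate early AP-1 and EGR genes are 10 transcription factor genes, Fos, Fosb, Fosl1, Fosl2, Jun, Junb, Jund, Egr1, Egr2 and Egr3. They were taken by gene name from a table of 55357 mouse genes, in which each of the 10 names occurs once. RNA sequencing had been done on 3 cultures of mouse cortical astrocytes transfected with a plasmid that expresses FLAG-tagged BRAF K499E from the CMV promoter (KE), and on 3 naive cultures that were not transfected (NT). RNA was taken at 48 hours. The astrocytes came from embryos of C57BL/6 mice, and the medium described for them contained HB-EGF, a ligand of the EGF receptor, so according to that description the NT cultures also had a growth factor that acts through ERK. K499E is an amino acid change found in RASopathies, developmental disorders with overactive RAS/ERK signaling. No culture with an empty plasmid or with wild-type BRAF is analysed here, so plasmid delivery and BRAF KE cannot be told apart in any difference between KE and NT. A plasmid usually reaches only part of the cells of a dish, and the CMV promoter drives expression in any cell type. The values are averages over all cells of a culture, and the share of transfected cells is not known here. Where nothing says that replicates are separate animals or preparations, p-values measure only the spread between these cultures.

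AP-1 is a dimer of a JUN protein with a FOS protein or with another JUN protein, held together by a leucine zipper, and it binds DNA through the adjoining basic region. The EGR proteins bind GC-rich DNA with zinc fingers. These genes are called immediate early because growth factors, calcium and stress switch on their transcription without prior protein synthesis. ERK takes part in this by phosphorylating ternary complex factors such as ELK1, which sit with SRF on a promoter element named the CArG box, and by stabilizing FOS and FOSL1 proteins. In astrocytes, FOS and JUN family genes are classic markers of injury and growth factor responses. The measurement here is the RNA of each gene and not the phosphorylation or amount of the protein.

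BRAF KE–transfected astrocytes had more RNA of 9 of the 10 genes than astrocytes without the plasmid. Fosb rose the most, 9.33-fold by the ratio of mean normalized counts, followed by Fosl1 (3.33-fold) and Egr2 (2.21-fold). Junb and Fos rose 1.71-fold and 1.70-fold, and Egr1, Jund, Jun and Fosl2 rose 1.46-fold, 1.39-fold, 1.35-fold and 1.25-fold. Egr3 was the exception, with an overlap between KE and NT and no call. A gene was called when its adjusted p was under 0.05 in limma, fitted to log2(normalized count + 1) over the 15280 genes with a mean of at least 10 and adjusted by Benjamini-Hochberg over all of them. All 10 genes passed that filter, and 9 were called higher and 0 lower. Calls were common in this comparison, since 51.3% of tested genes were called in either direction and 25.3% were called higher in KE. Every KE culture was above every NT culture for the same 9 genes, which was so for 30.1% of tested genes. The median log2 difference, KE minus NT, was 0.66 over the 10 genes and 0.0018 over all tested genes. Only Fosb and Fosl1 exceeded the log2 cutoff of 1.5 used in the study's astrocyte analyses.

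**Figure D1:**
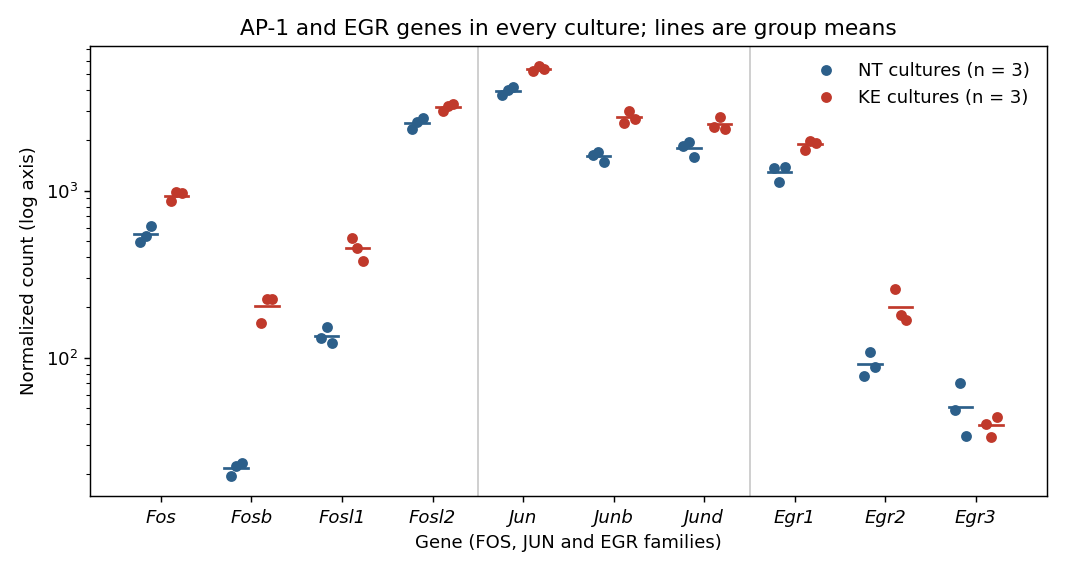
Normalized counts (log axis) of the 10 genes in the 3 NT cultures (blue) and the 3 KE cultures (red), 1 point per culture, with a line at each group mean. The KE points lie above the NT points for every gene except Egr3, where they overlap, and the separation is widest for Fosb.

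The transfected gene checks the labels. Braf was 35025, 34933 and 40978 normalized counts in KE and 925, 811 and 946 in NT. After division by the authors' size factors, the normalized counts sum to between 30472400 and 30895500 per culture. If the commonest low value in a culture stands for a single read, the cultures held about 24500000 to 34100000 reads, and KE replicate 2 the fewest. In the same units Fosb in NT rested on about 20 to 25 reads per culture and Egr3 on about 27 to 68 reads in the 6 cultures, so these values rested on the fewest reads, and every other value of the 10 genes was at least 78.0 normalized counts. The cultures expressed most of the listed astrocyte markers at high levels, with Slc1a3 between 38451 and 48297 normalized counts. Of the others, Gjb6 averaged under 1, and S100b averaged only 17.7 in KE and 26.7 in NT and was not called. Markers of microglia and macrophages moved strongly with the groups. Their 22-gene list summed to between 65153 and 80167 normalized counts in NT and between 10139 and 12997 in KE, with 20 of 21 tested markers called lower and only Siglech at 0 in all 6 cultures. In bulk RNA, fewer cells of a type and less RNA per cell cannot be told apart, and microglia also transcribe AP-1 and EGR genes. The part of this marker decrease in the values of the 10 genes was not tested. Of the astrocyte markers, 7 of 11 tested were called higher and 1 lower, and the list summed to between 150984 and 160993 in NT and between 203452 and 208880 in KE. Oligodendrocyte lineage markers were called lower for 7 of 9 (1 higher), summing to between 38171 and 38399 in NT and between 29787 and 34867 in KE. Neuronal markers were called lower for 2 of 8 and higher for 2, and vascular and mesenchymal markers lower for 3 of 8 and higher for 3. Leaving out 1 culture changed the smaller of these counts: 4 oligodendrocyte lineage markers were called lower without KE replicate 3 or NT replicate 2, and 1 vascular and mesenchymal marker was called higher without KE replicate 3 or lower without NT replicate 2.

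The members' promoters were searched because most of the genes moved in the same direction and because the CArG box is the element through which ERK acts on several of them. The 500 bases before the start of each gene's canonical transcript (Gencode vM39 on GRCm39, the build named in the study's methods) were searched on both strands. A CArG box, which is CC, then 6 bases that are A or T, then GG, was found before Fos, Fosb, Egr2 and Egr3, which is 4 of the 10 genes, against 2.76% of 21757 promoters of protein-coding genes. In this window it was thus found before 3 genes that rose and before the gene that was not called. It was not found in this window before the other 6 genes that rose, Egr1 among them. These counts hold for the canonical starts only, so they do not show that a gene lacks a box. The box of Egr3 is not reported here. The boxes of Fos, Fosb and Egr2 follow, 5′ to 3′ on the strand of the gene, with the box in capitals and the flanking bases in lower case. The Fos stretch is chr12:85520305-85520414 (plus strand) with its box 303 to 294 bases before the start, and the Fosb stretch is chr7:19044183-19044292 (minus strand) with its box at 266 to 257 bases. Egr2 has a box at 65 to 56 bases (chr10:67373627-67373656, plus strand) and one at 368 to 359 bases (chr10:67373324-67373353), and only 30 bases of each are given because an exon of another transcript reaches into that region.
Fos: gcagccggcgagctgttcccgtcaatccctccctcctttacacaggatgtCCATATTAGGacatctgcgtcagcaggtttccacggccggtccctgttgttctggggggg
Fosb: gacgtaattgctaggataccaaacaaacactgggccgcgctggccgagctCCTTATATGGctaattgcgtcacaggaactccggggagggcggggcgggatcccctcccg
Egr2, near box: CCATATATGGgcagcgacgtcacgggtatt
Egr2, far box: CCTTTTTTGGaaagtctcggagaaccggaa

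The AP-1 element TGANTCA was found before Fos alone (12.3% of all promoters held it), and the related element TGACGTCA before Jund alone (1.96%). The EGR element GCGNGGGCG was found before Fosb, Jun and Jund (5.46%), at 3 places before Jund. None of the 4 elements was found in the 500 bases before the canonical start of Fosl1, Fosl2, Junb or Egr1. A match is only a run of letters and not a measured binding site. A missing match refers only to these 500 bases before the canonical start. Any other start of a gene, such as one inside its canonical transcript, was not searched.

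The FOS family supplies the partners that a JUN protein needs for strong AP-1 binding. Fos, the prototype of the family, lies between 85520658 and 85524047 on chromosome 12 (GRCm39, plus strand). KE cultures had 862, 974 and 964 normalized counts of Fos and NT cultures had 493, 537 and 616. The lowest KE culture was 1.40 times the highest NT culture. The log2 difference was 0.77 (SE 0.10, 95% interval 0.56 to 0.98, adjusted p = 6.05e-05 from limma).

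Fosb, on the minus strand of chromosome 7 from 19036621 to 19043976, encodes FOSB and, by alternative splicing, the shorter and stable ΔFOSB. It had 161, 224 and 225 normalized counts in KE and 19.6, 22.4 and 23.3 in NT. KE replicate 1 was the lowest of the KE cultures and still 6.88 times the highest NT culture. The log2 difference of 3.15 (SE 0.20, 95% interval 2.71 to 3.59, adjusted p = 3.16e-07 from limma) was the 60th largest rise of 15280 tested genes. The interval of Fosb lies above those of the other 9 genes, although the differences between genes were not themselves tested. The table holds 1 value per gene and does not separate the FOSB and ΔFOSB transcripts.

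Fosl1 and Fosl2 encode FRA1 and FRA2, which lack the strong activation domain of FOS. Fosl1 (chromosome 19, plus strand, 5497575 to 5505974) had 518, 455 and 380 normalized counts in KE and 131, 153 and 122 in NT. All 3 KE cultures were at least 2.48 times the highest NT culture, and the log2 difference was 1.72 (SE 0.14, 95% interval 1.41 to 2.03, adjusted p = 2.33e-06 from limma). Fosl2 (chromosome 5, plus strand, 32292707 to 32315186) had 2992, 3201 and 3314 in KE and 2324, 2585 and 2710 in NT. The groups of Fosl2 came close, with the lowest KE culture 1.10 times the highest NT culture. Its log2 difference of 0.32 (SE 0.07, 95% interval 0.17 to 0.48, adjusted p = 0.00290 from limma) was the smallest of the 9 rises. Fosl1 overlaps Ccdc85b, which is on the opposite strand and averaged 724 normalized counts in KE and 1002 in NT, so its direction was opposite to that of Fosl1. The library kit keeps the strand, but whether the counting used it is not given in the sources used here.

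JUN proteins form the other side of the AP-1 dimer. Jun, the main activating member, lies on the minus strand of chromosome 4 from 94937271 to 94940459 and has no intron, its canonical transcript being as long as the gene (3189 bases). It had 5223, 5535 and 5333 normalized counts in KE and 3734, 4013 and 4148 in NT. This was the tightest of the 10 genes, with coefficients of variation of 2.95% in KE and 5.32% in NT. The log2 difference was 0.44 (SE 0.06, 95% interval 0.31 to 0.57, adjusted p = 9.83e-05 from limma).

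Junb, which can oppose JUN at some promoters, is on the minus strand of chromosome 8 from 85701113 to 85705359. KE cultures had 2553, 2989 and 2699 normalized counts of Junb and NT cultures had 1625, 1710 and 1490. The KE cultures lay well above the NT cultures, and the log2 difference was 0.77 (SE 0.08, 95% interval 0.60 to 0.94, adjusted p = 9.88e-06 from limma). Jund, the member that most tissues transcribe steadily, is also on chromosome 8, plus strand, from 71151599 to 71153265. It had 2403, 2772 and 2324 in KE and 1849, 1949 and 1586 in NT, and its log2 difference was 0.48 (SE 0.09, 95% interval 0.28 to 0.68, adjusted p = 0.00108 from limma). KE replicate 2 was the highest KE culture for each of the JUN genes, as it was for Fos and Egr1. Junb overlaps Prdx2 on the opposite strand, which averaged 9654 normalized counts in KE and 10176 in NT. The antisense gene of Jun, Junos, averaged 10.9 in KE and 8.92 in NT, and Gm11175, antisense to Jund, 5.49 and 5.68.

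Among the EGR genes, Egr1 (chromosome 18, plus strand, 34992876 to 34998049) encodes the most widely induced zinc finger factor of the group. It had 1760, 1976 and 1928 normalized counts in KE and 1369, 1126 and 1388 in NT. The KE values lay above the NT values, with a log2 difference of 0.55 (SE 0.09, 95% interval 0.36 to 0.74, adjusted p = 3.57e-04 from limma). Egr2, known as the regulator of Schwann cell myelination, is on the plus strand of chromosome 10 from 67371305 to 67378018. It had 258, 180 and 168 in KE and 78.0, 108 and 88.3 in NT. KE replicate 1 was the highest, and the lowest KE culture was 1.55 times the highest NT culture. The log2 difference of Egr2 was 1.12 (SE 0.19, 95% interval 0.70 to 1.54, adjusted p = 5.64e-04 from limma).

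Egr3, which is activated together with EGR1 in neurons and lymphocytes, lies on the plus strand of chromosome 14 from 70314350 to 70320063. It had 39.9, 33.5 and 44.2 normalized counts in KE and 48.4, 70.0 and 34.0 in NT. The lowest NT culture fell among the KE cultures, and NT replicates 2 and 3 stood farther apart than the group means. The log2 difference was -0.32 (SE 0.28, 95% interval -0.92 to 0.29, adjusted p = 0.363 from limma). The interval allows a fall as well as a small rise, and it lies below the intervals of Egr1 and Egr2. Without NT replicate 2 the difference was -0.06, and without NT replicate 3 it was -0.57 (adjusted p = 0.0985), so single NT cultures set its size. Egr4, the remaining gene of the family, averaged 6.80 normalized counts in KE and 7.99 in NT and was below the filter.

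Levels of different genes were compared per kilobase of canonical transcript. Summed over the FOS family, this level was 1157, 1223 and 1194 in KE and 642, 713 and 751 in NT. The mix of FOS family RNA differed between the groups. Fosl2 made up 51.9% ± 0.133 (SD, n = 3) of the family in NT and 38.1% ± 1.45 in KE. Fosl1 went from 10.4% ± 1.5 to 20.3% ± 3.48, and Fosb from 0.820% ± 0.012 to 4.50% ± 0.723. The share of Fos was 36.9% ± 1.64 in NT and 37.0% ± 1.56 in KE. Fosl2 and Fos therefore stood closer in KE, where Fosl2 was 1.03 ± 0.030 times Fos, than in NT, where it was 1.41 ± 0.065 times Fos. Even after its rise, Fosb remained the lowest of the 4 at 0.121 ± 0.015 times the level of Fos. These shares are descriptions of the same values that were tested above. Shares and ratios between genes depend on the canonical length, which was 2114 bases for Fos, 6975 for Fosl2 and 4496 for Egr1. Other transcript lengths were not tried.

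The JUN family kept a more even mix. The summed level was 4491, 5051 and 4558 in KE and 3178, 3373 and 3075 in NT. Junb was 27.7% ± 0.797 of it in NT and 32.3% ± 0.746 in KE, and in each KE culture its share was higher than in any NT culture. Jun was 38.8% ± 3.02 in NT and 35.8% ± 1.28 in KE, with every KE culture below every NT culture by a narrow margin (highest KE share 36.7%, lowest NT share 36.8%). Jund was 33.5% ± 2.23 in NT and 31.9% ± 1.18 in KE, and its groups overlapped. Per kilobase, each JUN gene was above each FOS gene in both groups. Within the EGR family, Egr1 made up 87.0% ± 3.73 in NT and 84.5% ± 3.60 in KE. Egr2 made up 9.43% ± 2.30 and 13.7% ± 3.56, and Egr3 made up 3.61% ± 1.55 and 1.82% ± 0.273. The ranges of Egr1 and Egr2 overlapped between the groups, and those of Egr3 did not, with a highest KE share of 2.05% and a lowest NT share of 2.26%.

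**Figure D2:**
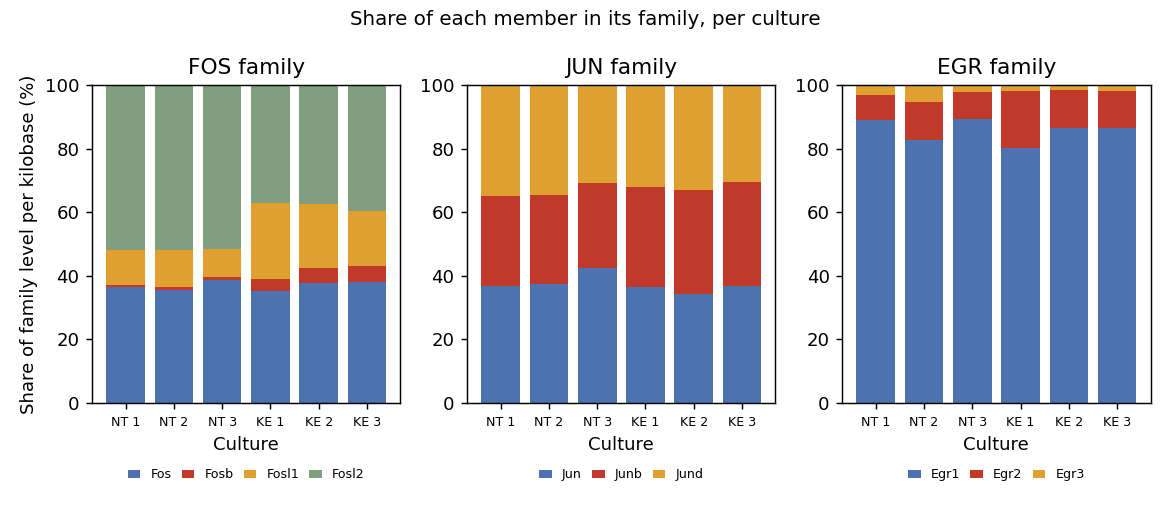
Stacked bars of the share (%) of each gene in the level per kilobase of its family, for the 3 NT and the 3 KE cultures. In the FOS family, Fosl2 takes the largest part in NT (mean 51.9%) and a smaller one in KE (38.1%), while Fosl1 and Fosb take more, and in the JUN family the share of Junb is larger in KE (32.3%) than in NT (27.7%).

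The genes with the pattern most like that of Fosb over the 6 cultures were sought among the other tested genes, by the Euclidean distance between log2 values centred on each gene's mean. The nearest were Scg2, which encodes the granule protein secretogranin II, at a distance of 0.291, the gene model Gm47920 at 0.542 and the interferon-induced GTPase gene Igtp at 0.554. Scg2 had 59.2, 69.1 and 67.4 normalized counts in KE and 6.09, 7.75 and 6.84 in NT. Igtp had between 13197 and 13798 in KE and between 1404 and 1895 in NT. With 3 cultures per group such a distance mostly reflects the size of the difference between KE and NT.

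Regulators that act on these genes moved in both directions. Of a list of 20 genes for ERK, JNK, p38 and RSK kinases and for SRF, its cofactors, ELK factors and CREB, all were tested, 3 were called higher and 7 lower, and the median log2 difference was -0.13. These were 15% and 35% of the list, against 25.3% and 26.0% of all tested genes. The rises were those of Mapk10 (0.91) and Mapk9 (0.39), which encode the JUN kinases JNK3 and JNK2, and of Elk1 (0.21), a ternary complex factor. Without KE replicate 2 or without NT replicate 2, the number called lower was 4. Mapk10 had 2072, 1773 and 2193 normalized counts in KE and 912, 1127 and 1177 in NT. The largest falls were those of Rps6ka1 (-1.06), which encodes the ERK-activated kinase RSK1, Creb1 (-0.64) and Srf (-0.35). These falls also went with the lower microglia and macrophage markers, whose part in them was not tested. Srf had 924, 1093 and 925 in KE and 1167, 1298 and 1274 in NT, so the factor that binds the CArG box was lower in RNA in every KE culture. Mapk3, which encodes ERK1, was not called, at a log2 difference of 0.12. The AP-1 and EGR genes, this list and the lists below were chosen with earlier results of these data known. Their shares are therefore not a test against all tested genes.

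Other bZIP genes whose products pair with FOS or JUN proteins moved in both directions. Of 13 listed, 12 were tested, 6 were called higher and 3 lower, with a median of 0.09. Of those tested, 50% were called higher and 25% lower, where all tested genes had 25.3% and 26.0%. Atf3, a stress-induced partner of JUN, had 1878, 1867 and 1747 normalized counts in KE and 603, 726 and 561 in NT, a log2 difference of 1.55 (SE 0.09, adjusted p = 2.38e-07 from limma). The small MAF genes Mafk (0.64) and Maff (0.38) also rose. Maf fell (-0.99). Batf and Batf2, which belong to the BATF family, are below a mean of 50 and were named after their values were seen. Batf2 rose the most of the list (log2 difference 1.80, adjusted p = 0.0132 from limma), with an average of 24.9 normalized counts in KE and 8.04 in NT. Batf fell (-3.29), with an average of 4.07 in KE and 52.3 in NT. The falls of Batf and Maf went with that of the microglia and macrophage markers, whose part in them was not tested. Nab2, which encodes a corepressor that binds EGR1 to EGR3 and is itself an EGR target, had 1467, 1626 and 1614 in KE and 1981, 2355 and 2143 in NT. It fell by 0.46 on the log2 scale (SE 0.08, adjusted p = 4.73e-04 from limma), while its relative Nab1 was not called (-0.06).

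Of 30 other immediate early genes, all tested, 17 were called higher and 6 lower, with a median log2 difference of 0.34. These were 56.7% and 20% of the list, against 25.3% and 26.0% of all tested genes. The largest rises were those of Gadd45b (2.81) and Ppp1r15a (2.22), both of which act in stress responses, and of Csrnp1 (2.09), a nuclear protein gene induced by AXIN1. Gadd45b had 2219, 2203 and 2189 normalized counts in KE and 321, 367 and 263 in NT. The largest falls were those of Sgk1 (-1.06), a kinase gene induced by glucocorticoids, Ccn1 (-0.49), a matrix protein gene known as a YAP target, and Arc (-0.43), an SRF target of active neurons. Atf3 stands both here and among the bZIP partners.

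Genes known as targets of AP-1 or EGR factors were listed as well, 26 in all, of which 25 were tested. Of these, 15 were called higher and 8 lower, with a median log2 difference of 0.58. The shares were 60% higher and 32% lower, beside 25.3% and 26.0% over all tested genes. The largest rises were those of the prostaglandin synthase gene Ptgs2 (3.46) and the cytokine genes Lif (2.62) and Il6 (2.48). Ptgs2 had 3782, 3564 and 4493 normalized counts in KE and 424, 510 and 208 in NT. Plau (-2.43), which encodes urokinase, Mmp12 (-2.21), which encodes macrophage elastase, and Tgfb1 (-2.01) fell the most. Mmp12 is also a macrophage gene, and microglia transcribe Tgfb1, so these falls went with the lower microglia and macrophage markers, whose part in them was not tested. Most of the listed targets also answer to other factors. The counts describe the list only, which was chosen with earlier results of these data known.

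**Figure D3:**
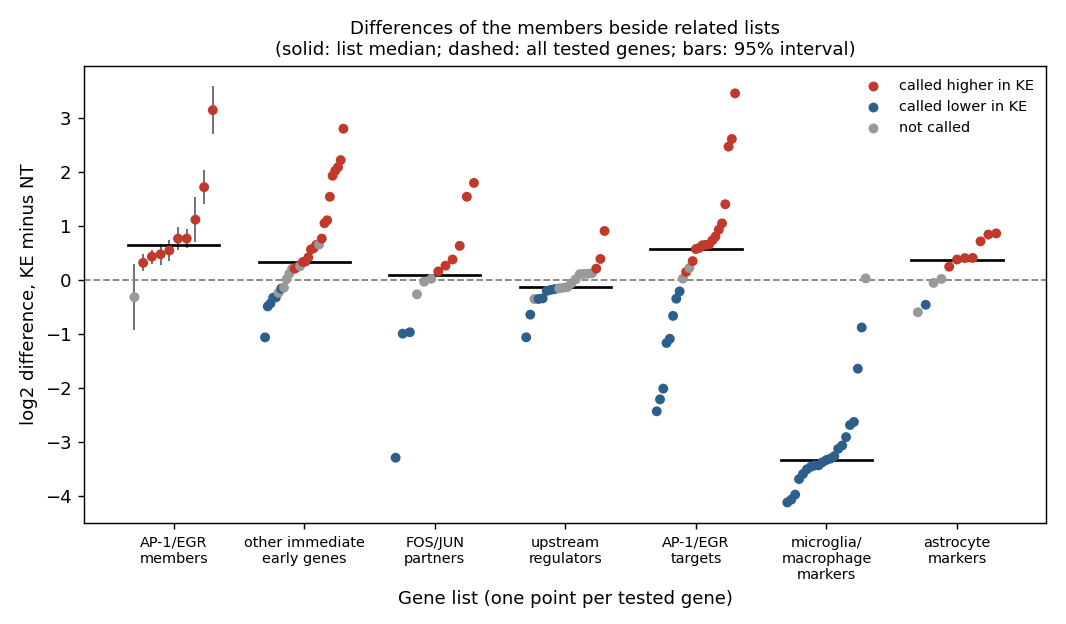
Log2 difference, KE minus NT, of every tested gene of 7 lists, with red for genes called higher in KE, blue for genes called lower and gray for genes not called. Solid lines are list medians, the dashed line is the median of all tested genes, and bars on the 10 AP-1 and EGR genes are 95% intervals. The AP-1 and EGR genes lie above the dashed line except Egr3. The microglia and macrophage markers lie below it except Sall1, and far below it except P2ry12 (-0.88).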

How the data were processed

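The table deposited by the authors holds, per gene and culture, a normalized signal: gene counts from Salmon divided by DESeq2 size factors, after Trim Galore and STAR, per the labels. The study's methods name GRCm39 with Gencode vM28 for mouse. The submitters' processing notes list GRCh38, but all 55357 identifiers are mouse, and 54749 of them are in Gencode vM39, from which coordinates were taken. The methods mention adjusting batches without naming any, so no batch was modelled. Only 72.7% to 75.8% of low values came within 0.1 of whole multiples of the commonest one, so whole reads were not recovered and no count test was run.

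Each of the 6 columns was matched to its sample by library name. The test was that of limma 3.58.1 (R 4.3.3) on log2(normalized count + 1), with a variance trend and group as the only factor, over genes averaging 10 or more. The log2 scale with a pseudocount of 1 understates changes of low genes. P-values are two-sided and adjusted by Benjamini-Hochberg over 15280 genes, and the threshold was 0.05. Levels per kilobase use the length of the canonical transcript in Gencode vM39. Promoter bases were read from the GRCm39 genome. The fit was tested on simulated data.

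The members and the lists were chosen with earlier results of these data known. Outside the cell type marker lists, the text names up to 3 called genes per list in each direction. These had a mean of at least 50 and the largest log2 differences. The text also names the 3 genes most like the member that changed the most, and Braf. A few items that this rule or the promoter search gave are not reported here. Alternatives were other pseudocounts (0.5 and 5), other filters on low values (none, or a mean of at least 50), quantile normalization, scaling to the 75th percentile, no variance trend, the replicate number as a block, a log2 cutoff of 1.5, and leaving out each culture in turn.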

Additional observations from a re-analysis of the deposited data

How the results depend on the processing

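None of the 10 genes changed sign or crossed the adjusted p threshold under any alternative that gave a value, and 9 genes were called higher in each except the log2 cutoff. Egr3 gave no value with a mean of at least 50. The log2 differences ranged from 2.95 to 3.31 for Fosb, from 1.62 to 1.84 for Fosl1, from 0.93 to 1.25 for Egr2, from 0.26 to 0.37 for Fosl2 and from -0.57 to -0.06 for Egr3. The highest adjusted p of a called gene was 0.0219 (Fosl2, limma without a variance trend). No scaling moved the median of all genes by more than 0.027. With a log2 cutoff of 1.5, 346 of all tested genes were higher and 525 lower, as were 2 and 0 of the 10 genes, 2 and 1 of the bZIP partners, 6 and 0 of the other immediate early genes and 3 and 3 of the targets. With that cutoff 0 and 0 of the upstream regulators, of the astrocyte, of the neuronal and of the vascular and mesenchymal markers passed, 0 and 1 of the oligodendrocyte lineage markers passed, and 0 EGR partners were lower. Without a variance trend 4 upstream regulators and 4 oligodendrocyte lineage markers were lower and 1 vascular and mesenchymal marker was higher. Leaving out each culture in turn, 3280 to 3565 genes were higher and 3496 to 3744 lower, while the ranges were 4 to 6 for upstream regulators lower, 4 to 7 for oligodendrocyte lineage markers lower, and 1 to 2 higher and 1 to 3 lower for vascular and mesenchymal markers. The causes were not tested. A replicate block in the fit gave 3967 genes higher, 4079 lower, and 9 of the 10 genes higher. Same-numbered cultures had r across genes of 0.0589 to 0.0664 and other pairs -0.0499 to -0.0105, so each culture correlated best with its own number, a hint from the data and not from the design. The numbers were not treated as pairs, since every r was under 0.1 and the labels name nothing that they share. Fosb in NT and Egr3 rest on the fewest reads.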
